A study of Homo sapiens with 18 samples.

Results

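KLF2, KLF4, KLF6 and KLF15 are Krüppel-like factors, and their RNA was followed in Cal51, an established human breast cancer cell line. They were taken by name from 3 tables, one for each treated group beside the shared DMSO libraries. All 4 were found, among 3647 genes present in at least 1 table. The series holds 18 RNA sequencing libraries in 6 groups of 3. The 12 libraries used come from cells kept for 8 h in DMSO (solvent alone), in fenofibrate (a lipid-lowering drug and ligand of PPARα), in ezetimibe (which blocks NPC1L1, a carrier for cholesterol uptake) or in fenofibrate plus ezetimibe, called the combination here. The remaining 6, from PKM2 knockout and Control cells, were not analysed here. The labels give no dose and do not say that replicates were separate cultures, so the spread between libraries may be technical.

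Krüppel-like factors are transcription factors with a run of C2H2 zinc fingers at the C-terminus that bind GC-rich and CACCC-type DNA. KLF2 is best known from endothelial cells and resting lymphocytes, where the kinase ERK5 and MEF2 factors switch it on. KLF4 drives differentiation of epithelia and is one of the classical reprogramming factors. KLF6 is broadly expressed, answers quickly to injury and growth signals and has been described as a tumour suppressor, and KLF15 is a metabolic regulator of amino acid and glucose handling that glucocorticoids induce.

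The windows around the annotated starts of the 4 genes show which short regulatory motifs lie next to the RNA that was measured. Each is given 5′ to 3′ on the gene's strand, from 250 bases before to 50 bases after the start, as RefSeq holds it on GRCh38.p14. Capitals mark the E-box CACGTG, the core bound by MYC, USF and TFEB, and the MEF2-type motif, in which CTA and TAG stand 4 bases apart.
KLF2 (chr19:16324576-16324875, + strand): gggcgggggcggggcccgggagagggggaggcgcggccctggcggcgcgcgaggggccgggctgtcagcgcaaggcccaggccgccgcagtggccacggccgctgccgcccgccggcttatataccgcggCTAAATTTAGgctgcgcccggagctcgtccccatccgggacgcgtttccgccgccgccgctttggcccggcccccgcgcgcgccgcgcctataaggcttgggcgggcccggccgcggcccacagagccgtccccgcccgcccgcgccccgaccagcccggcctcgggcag
KLF4 (chr9:107489720-107490019, - strand): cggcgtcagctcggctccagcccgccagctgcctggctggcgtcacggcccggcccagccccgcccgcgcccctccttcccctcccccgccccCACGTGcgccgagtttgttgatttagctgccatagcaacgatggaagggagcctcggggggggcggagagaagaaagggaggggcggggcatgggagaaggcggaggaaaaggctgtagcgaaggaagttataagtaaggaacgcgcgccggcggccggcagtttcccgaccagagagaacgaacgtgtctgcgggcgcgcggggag
KLF6 (chr10:3785160-3785459, - strand): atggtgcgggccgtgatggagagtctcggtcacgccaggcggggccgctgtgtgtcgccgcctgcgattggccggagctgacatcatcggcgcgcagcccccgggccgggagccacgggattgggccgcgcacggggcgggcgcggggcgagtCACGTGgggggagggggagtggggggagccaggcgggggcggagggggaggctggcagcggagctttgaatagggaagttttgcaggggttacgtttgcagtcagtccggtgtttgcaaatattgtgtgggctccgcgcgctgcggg
KLF15 (chr3:126357359-126357658, - strand): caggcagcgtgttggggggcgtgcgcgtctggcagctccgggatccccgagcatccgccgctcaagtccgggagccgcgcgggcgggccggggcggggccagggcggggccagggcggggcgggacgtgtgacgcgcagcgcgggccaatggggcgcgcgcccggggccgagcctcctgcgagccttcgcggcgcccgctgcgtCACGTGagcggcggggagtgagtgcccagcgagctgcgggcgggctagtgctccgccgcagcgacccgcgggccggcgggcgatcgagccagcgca

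An E-box stood in the windows of KLF4, KLF6 and KLF15, with its first base at -157, -97 and -46 from the start, and not in that of KLF2. Of all 35116 windows of this length 7.26% held one. The windows of KLF2, KLF6 and KLF15 reach partly, and that of KLF4 wholly, into the gene as GENCODE release 29 draws it. The KLF2 window held the MEF2-type motif at -120, which 2.73% of all windows held. GC boxes (GGGCGG on either strand, the site of SP and KLF factors) occurred in all 4 windows, 6 in KLF2, 4 in KLF4, 2 in KLF6 and 6 in KLF15, against 45% of all windows with at least 1. The windows of KLF2 and KLF15 had 80.7% and 80.3% G and C, those of KLF4 and KLF6 69% and 70.7%, and the median of all windows was 58.7%. An antioxidant-type motif (TGACNNNGC, 13.3% of windows) was found in KLF15 on the opposite strand, over bases from -53 on, where its first letters overlap the E-box. No match on either strand was found for CACCC (59.9% of windows), the cyclic AMP element TGACGTCA (1.85%), the AP-1 motif TGANTCA (7.71%), the C/EBP-ATF motif TGATGNAA (3.62%), the forkhead motif GTAAACA (3.42%) or 3 gapped motifs. These were the endoplasmic reticulum stress element (CCAAT and CCACG with 9 bases between, 0.0769%), the heat shock element (GAA, TTC and GAA with 2 bases between neighbours, 0.49%) and the glucocorticoid element (AGAACA and TGTTCT with 3 bases between, 0.00285%). These are matches of letters in this window alone, and no binding was measured. The motifs were chosen with these windows in view, so the shares of all windows are background only and no enrichment was tested.

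With the combination all 4 factors were higher than in DMSO, by 7.03-fold for KLF4, 5.11-fold for KLF15, 3.66-fold for KLF2 and 2.01-fold for KLF6. KLF15 alone was also listed, and higher, with each drug given singly. The tables hold only genes that the authors called, each more than 1 log2 unit from DMSO with an adjusted p below 0.05. The members were chosen from these tables, so their changes against DMSO are described without a test, and a gene absent from a table may have changed by less or been too low to test. Of all genes tested 0.835% were listed with fenofibrate (0.761% as higher), 3.47% with ezetimibe (2.7% as higher) and 17.6% with the combination (10.3% as higher). The numbers of genes tested were worked out from p-value ranks, and that for fenofibrate is the least certain.

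Values are normalised read counts, relative to the other reads of the library, so that a change in the RNA content of the cells would not be seen. Reads in the genes of the combination table ran from 2550718 to 3265200 per library, and the total depth is unknown. Of 28 marker genes of epithelial, mesenchymal, endothelial, immune, adipocyte or liver cells and breast receptors, 0 were listed with fenofibrate, 2 with ezetimibe and 2 with the combination. CLDN4 was listed as higher (68.8 ± 12.7 against 24.1 ± 4.55 in DMSO) and the endothelial CDH5 as lower (10.1 ± 3.38 against 26.9 ± 10.3) with ezetimibe. ERBB2 (1223.5 ± 73.3 against 2951 ± 285) and APOA1 (23.1 ± 0.0970 against 57.1 ± 10.7) were listed as lower with the combination. Defining markers such as EPCAM, KRT8, VIM, PECAM1 and PTPRC were not listed, so the identity of the line could not be checked on them. All values with an error are means ± SD of 3 libraries unless stated.

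KLF2 (ENSG00000127528, hg38 chr19:16324817-16327874, + strand) counted 1237, 953 and 1053 in the combination libraries 1 to 3 and 311, 286 and 291 in the DMSO libraries. Every combination library was at least 3.07-fold above the highest DMSO library. The means were 1081 ± 144 and 296 ± 13.1, a log2 fold change of 1.86 ± 0.12 (SE, limma). The gene has 3 exons in its longest transcript, and no other annotated gene overlaps it on either strand. KLF2 was not listed with fenofibrate or with ezetimibe.

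KLF4 (ENSG00000136826, chr9:107484852-107490482, - strand) was the scarcest of the 4 in DMSO and had the largest change. Its values were 195, 173 and 190 with the combination against 20.5, 38.6 and 20.3 in DMSO. DMSO library 2 stood above the other two, and the lowest combination library was still 4.49-fold above it. The DMSO values rest on 21, 42 and 19 reads and the combination values on 178, 187 and 198. The log2 fold change was 2.83 ± 0.27 (SE, limma), and it was 3.13 without DMSO library 2. KLF4 was not listed with either drug alone.

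KLF6 (ENSG00000067082, chr10:3775996-3785281, - strand) was the most counted of the 4 and changed least. It counted 1850, 2336 and 2400 with the combination and 1122, 1091 and 1059 in DMSO, so that the groups stood apart by 1.65-fold at their nearest. Its log2 fold change was 1.00 ± 0.12 (SE, limma) and 1.01 in the authors' deposited table, where 50 of the 3508 genes had a smaller absolute change. KLF6 is thus just inside the listing threshold, while values just outside it were not used here. It was not listed with either drug alone.

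KLF15 (ENSG00000163884, chr3:126342635-126357442, - strand) counted 415, 355 and 362 with the combination and 74.2, 71.6 and 75.8 in DMSO. The means were 377 ± 33.1 and 73.9 ± 2.11, and the log2 fold change was 2.33 ± 0.15 (SE, limma). The lowest combination library was 4.68-fold above the highest DMSO library.

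**Figure D1:**
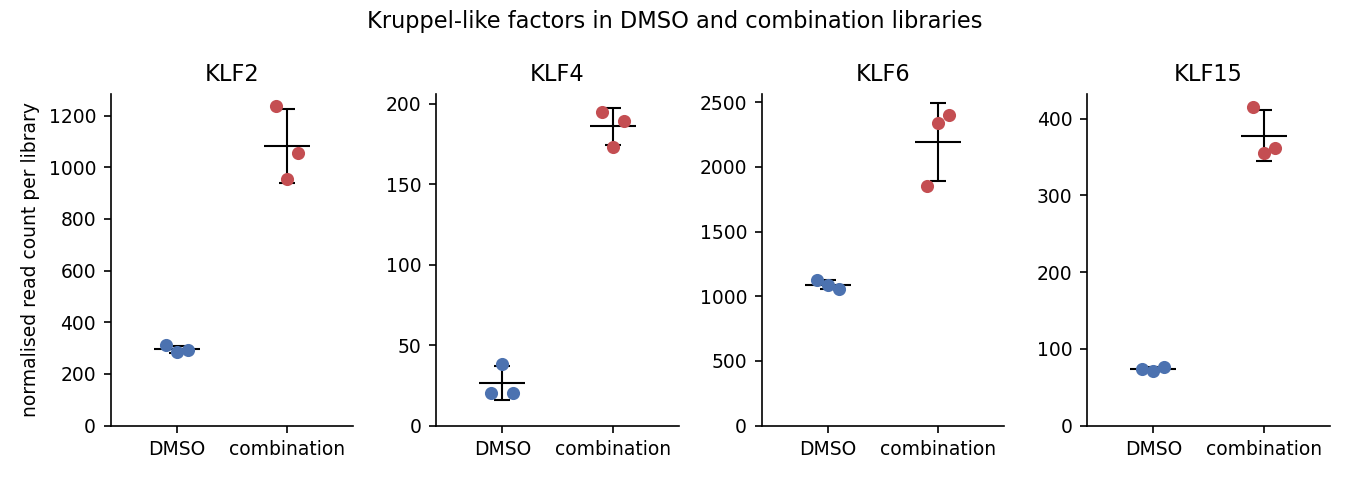
Normalised read count of KLF2, KLF4, KLF6 and KLF15 (vertical axes, starting at 0) in the 3 DMSO and 3 combination libraries; points are libraries 1 to 3 from left to right, long bars means and short bars ± 1 SD. In each panel the combination libraries lie above all DMSO libraries, from 1.65-fold for KLF6 to 4.68-fold for KLF15 at the nearest points.

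In all 4 genes no combination library overlapped a DMSO library, which held for 99% of the genes of that table. In whole reads, before scaling, KLF15 had 379, 383 and 378 in combination libraries 1 to 3 and KLF2 had 1129, 1029 and 1100. After scaling, combination library 1 had the highest value of KLF2, KLF4 and KLF15 and the lowest of KLF6. Over the 2303 genes with a mean of at least 50 that library lay a median of 0.171 log2 units from its group mean, against 0.119 and 0.0822 for the other two. Without it the log2 fold changes were 1.76 for KLF2, 2.80 for KLF4, 1.12 for KLF6 and 2.26 for KLF15. Among the 3508 genes of the table the median log2 fold change was 1.16. KLF6 lay below this median, with 42.1% of the genes lower, and the others above it, with 72.5% lower for KLF2, 81.6% for KLF15 and 89.8% for KLF4. These shares pool the 2058 genes listed as higher with the 1450 listed as lower. Counted from the largest rise down, KLF4 ranked 359, KLF15 644, KLF2 965 and KLF6 2032. KLF6 was thus among the smallest of the rises.

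Compared per kb of gene length, KLF6 and KLF2 were far above KLF15 and KLF4 in DMSO. The level per kb was 178 ± 5.17 for KLF6, 147 ± 6.50 for KLF2, 25.9 ± 0.741 for KLF15 and 7.23 ± 2.87 for KLF4. With the combination the order was KLF2 at 536 ± 71.4, KLF6 at 358 ± 49, KLF15 at 133 ± 11.6 and KLF4 at 50.8 ± 3.10. KLF2 ranged from 141 to 154 in DMSO and KLF6 from 172 to 183, and with the combination KLF2 ranged from 472 to 613 and KLF6 from 301 to 391. Neighbours in either order therefore did not overlap. The ratio of KLF2 to KLF6 per kb was 0.842, 0.796 and 0.837 in DMSO and 2.03, 1.24 and 1.34 with the combination. The swap depends on the length used: with the longest coding transcripts (2018 and 4656 bases, a choice made after seeing the data) in place of the deposited lengths (2018 and 6139 bases), the ratio was 0.639, 0.604 and 0.635 in DMSO and 1.54, 0.942 and 1.01 with the combination.

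**Figure D2:**
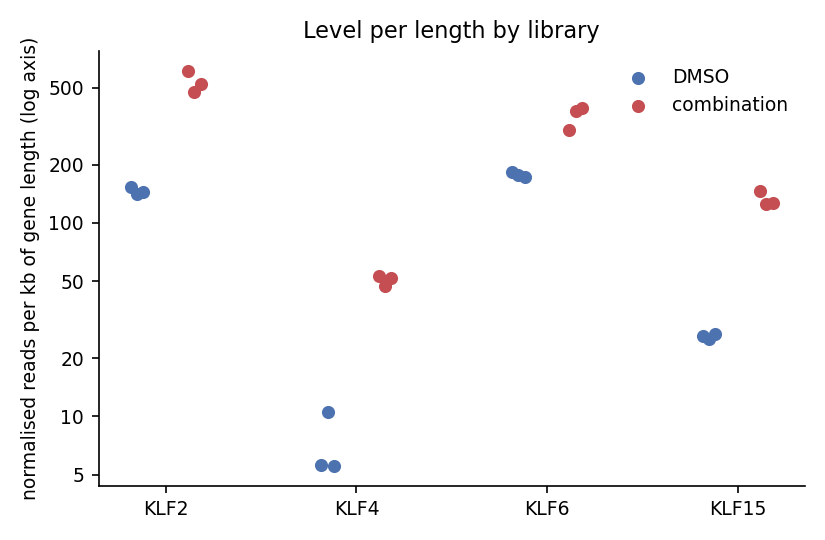
Normalised reads per kb of deposited gene length (log axis) for each factor in the 3 DMSO and 3 combination libraries of the combination table. KLF4 moves from 7.23 to 50.8 on average and stays the lowest in both groups, and KLF2 lies below KLF6 in DMSO and above it with the combination.

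KLF15 was the member with values in all 4 groups, and its mean was lowest in DMSO and successively higher with fenofibrate, ezetimibe and the combination. In its own table it counted 151, 164 and 175 with fenofibrate against 72.5, 69.6 and 74 in DMSO (2.27-fold, log2 1.17 ± 0.14 SE). It counted 185, 196 and 237 with ezetimibe against 74.5, 71.8 and 75.9 (2.78-fold, log2 1.45 ± 0.15 SE). Treated and DMSO libraries did not overlap in either table, as in 98% and 98.3% of their genes. All 3 comparisons share the same DMSO libraries.

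Put on one scale through the shared DMSO libraries, the KLF15 means were 73.9 ± 2.11 in DMSO, 168 ± 12.4 with fenofibrate, 205 ± 27.2 with ezetimibe and 377 ± 33.1 with the combination. The contrasts between treated groups did not enter the listing, although the listing used the same treated libraries. They ran only on genes already listed against DMSO, which favours a small spread, so their adjusted p-values may be too small. The combination exceeded ezetimibe by a log2 difference of 0.88 (95% interval 0.56 to 1.20, limma adjusted p = 0.000141) and every combination library was above every ezetimibe library. That contrast had a median of 0.53 over 359 shared genes, of which 53.2% were called higher and 71% had groups without overlap. The combination exceeded fenofibrate by 1.16 (0.88 to 1.45, limma adjusted p = 1.12e-05), again without overlap, in a contrast with a median of 1.07 over 65 shared genes, of which 69.2% were called higher and 76.9% had no overlap. Ezetimibe and fenofibrate, next to each other in the order, differed by 0.28 (-0.02 to 0.58, limma adjusted p = 0.0962). That difference did not pass, although the ezetimibe libraries (184 to 236) all lay above the fenofibrate libraries (155 to 180). In that contrast 58.3% of 60 shared genes were called, 73.3% had no overlap and the median was 0.28.

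**Figure D3:**
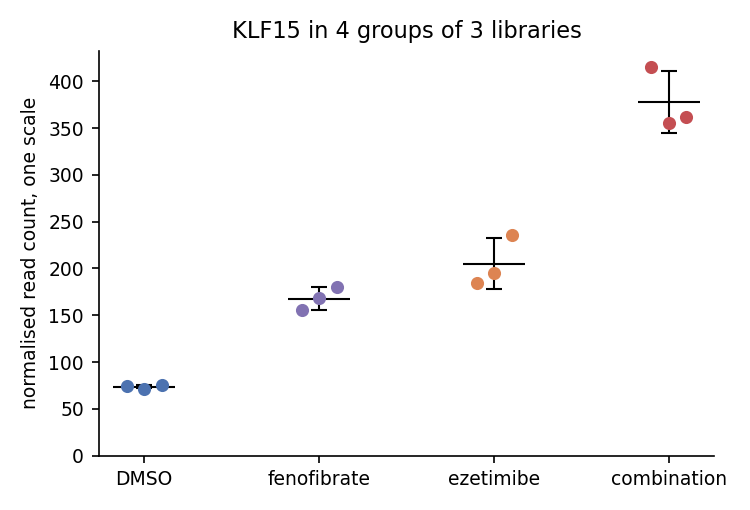
KLF15 normalised read count on one scale (vertical axis, starting at 0) in 4 groups of 3 libraries; points are libraries 1 to 3 from left to right, long bars means and short bars ± 1 SD. The means step from 73.9 in DMSO to 168, 205 and 377.

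The change of KLF15 with the combination was also compared with its fenofibrate and ezetimibe changes added up. On the log2 scale the combination fell short of the sum by a difference of -0.29 (95% interval -0.69 to 0.11, limma adjusted p = 0.172), which did not pass, while 71.4% of the 49 genes listed in all 3 tables were called in this contrast. In fold terms the product of the single-drug folds was 6.31 and the combination fold 5.11. In read counts the order was the other way round: the combination added 304 to the DMSO mean and the single drugs together added 225, with no test on this scale. Of the 49 genes 34 lay under their log2 sum and 15 above it, and the median difference was -0.60. Each had to be listed at more than 1 log2 unit with each drug and with the combination. The sum was thus held to a higher bar than the combination, which favours a shortfall for genes that rose, KLF15 among them. For genes that fell, a place under the sum means a stronger fall: PCDH17 lay under its sum (-3.75 against -2.56), CALB1 and CENPE above theirs.

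**Figure D4:**
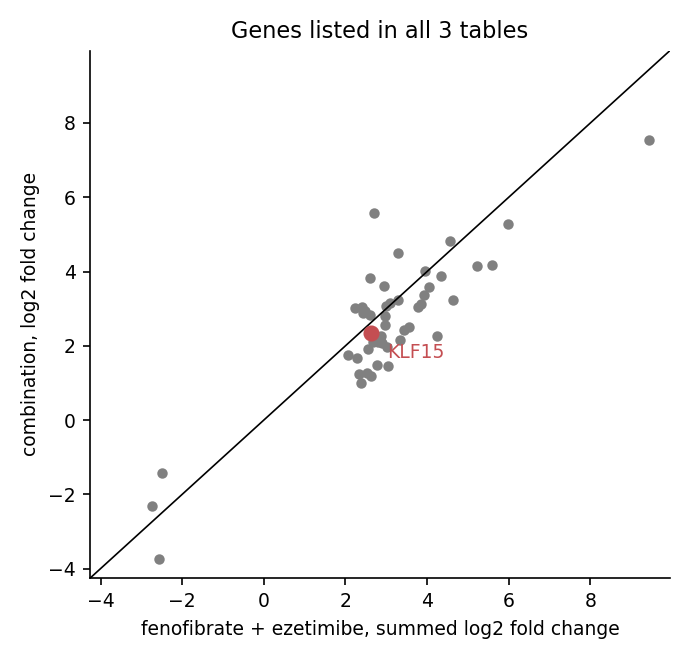
For the 49 genes listed in all 3 tables, the log2 fold change with the combination (vertical axis) against the sum of the log2 fold changes with fenofibrate and with ezetimibe (horizontal axis); the line marks equality and the red point is KLF15. 34 genes lie below the line, KLF15 among them at a distance of 0.29. Among genes that rose, the listing threshold on each single-drug change favours places below the line.

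A processed pseudogene of KLF2 was listed where KLF2 itself was not. KLF2P1 (ENSG00000231240, chr2:130036958-130038422, + strand) counted 29.9, 41.3 and 45.6 with ezetimibe against 8.82, 17.5 and 4.27 in DMSO. With the combination it counted 43.8, 114 and 97.7 against 8.79, 17.4 and 4.27, a log2 fold change of 3.02 ± 0.50 (SE, limma), and its lowest combination library was the one with the highest KLF2. The contrast of combination over ezetimibe did not pass for it (log2 1.02, 95% interval 0.06 to 1.99, limma adjusted p = 0.0615). KLF2P1 lies inside the span of FAR2P1, a transcribed pseudogene on the opposite strand that was also listed with the combination (269 ± 41.4 against 60.5 ± 12.9). FAR2P1 was not listed with ezetimibe. The sources used here do not say whether reads were counted by strand. Whether the exons of KLF2P1 and FAR2P1 overlap was not examined, so it is not known whether their reads were kept apart. The annotated transcripts of KLF2P1 and KLF2 were 81.3% identical over 1004 aligned bases and shared none of 993 stretches of 50 bases. KLF2P1 amounted to 7.88% of the KLF2 value with the combination, and the log2 ratio of means was 1.93 for both together and 1.87 for KLF2 alone.

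Among the rest of the family KLF9 was the only other gene listed. Of 18 KLF genes 5 were listed as higher with the combination and 0 as lower, and of the 14 outside the 4 members 1 was (7.14%), beside 10.3% of all genes tested. KLF9, a relative that glucocorticoids also induce, counted 31.8, 32.4 and 24.9 against 0.977, 12.9 and 7.47, from only 1, 14 and 7 reads in DMSO. Of the 9 SP genes, the closest relatives of the family, 0 were listed in any of the 3 tables. The authors' tables mark 99 other C2H2 zinc finger genes with the combination, 77 higher and 22 lower, in a table with 2058 genes higher and 1450 lower. How many such genes were tested is not known here, and the split was not tested. The shares given for the KLF genes and for the lists below count every gene of a list, whether or not it was tested. The shares of all genes count tested genes only.

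Of 11 upstream regulators of these factors 2 were listed as higher and 1 as lower with the combination, and 0 with either drug alone. That is 27.3% listed with the combination, beside 17.6% of all genes tested (10.3% higher and 7.27% lower), and it rests on 3 genes. MEF2D, a MEF2 factor of the kind that switches on KLF2, went from 575 ± 55.8 to 1437 ± 81.3 (log2 1.32 ± 0.11 SE). FOXO1, a forkhead factor that activates KLF2 in lymphocytes, had a log2 fold change of -1.35 ± 0.13 (SE), from 1850 ± 126 to 731 ± 117. NR3C1, the glucocorticoid receptor, was listed as higher at a very low level, 6.58, 21.3 and 24.9 against 0, 1.84 and 5.34. The other 8, among them the kinases MAP2K5 and MAPK7 (ERK5), were not listed.

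Of 15 cofactors and ubiquitin ligases of the family 1 was listed as higher and 2 as lower with the combination, a share of 20% in either direction, near the 17.6% of all genes tested. The deacetylase HDAC1 had a log2 fold change of -1.11 ± 0.11 (SE), 1453 ± 177 against 3119 ± 36.7. The acetyltransferase KAT2B had one of -2.23 ± 0.33 (SE), 45 ± 20 against 200 ± 31.8. FBXO32, a subunit of a ubiquitin ligase, stood higher, though scarce (38.7 ± 4.2 against 3.53 ± 2.40). EP300, CREBBP, WWP1 and FBXW7 were not listed.

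Of 29 genes reported as targets of these factors elsewhere 3 were listed as higher and 5 as lower with the combination, shares of 10.3% and 17.2% beside 10.3% and 7.27% of all genes tested. These shares rest on few genes, from a list chosen with earlier results of these data known. A link between these genes and the members was not tested. CDKN1A, the cell cycle inhibitor p21 that KLF4 and KLF6 are known to activate, went from 1846 ± 139 to 4770 ± 667 (log2 1.36 ± 0.12 SE). PLAU, the urokinase gene, went from 516 ± 12.5 to 1117 ± 160 (log2 1.10 ± 0.12 SE). HMOX1, which breaks down haem, was listed in all 3 tables, at 91.3 ± 19.6, 140 ± 9.02 and 472 ± 76.7 with fenofibrate, ezetimibe and the combination, from DMSO means of 27.6 ± 2.32, 28.4 ± 2.29 and 28.3 ± 2.32.

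Cyclins made up 3 of the 5 lower ones, and KLF4 is known to repress them. CCND1 had a log2 fold change of -1.23 ± 0.09 (SE), 5252 ± 137 against 12303 ± 351. CCNB1 had one of -1.03 ± 0.11 (SE), 2323 ± 273 against 4735.5 ± 210. That of CCNE1 was -2.24 ± 0.15 (SE), 107 ± 14 against 506 ± 21.4. TGFB1 and ENG, which KLF6 is known to activate, were lower as well, at 592 ± 116 against 1343.5 ± 95.4 and 18.1 ± 7.17 against 49.3 ± 5.32. With ezetimibe GPT, an aminotransferase, was listed at 29 ± 5.46 against 12.5 ± 0.637. The KLF2 targets NOS3, THBD and S1PR1 and the KLF15 targets BCAT2 and PRODH were not listed in any table.

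**Figure D5:**
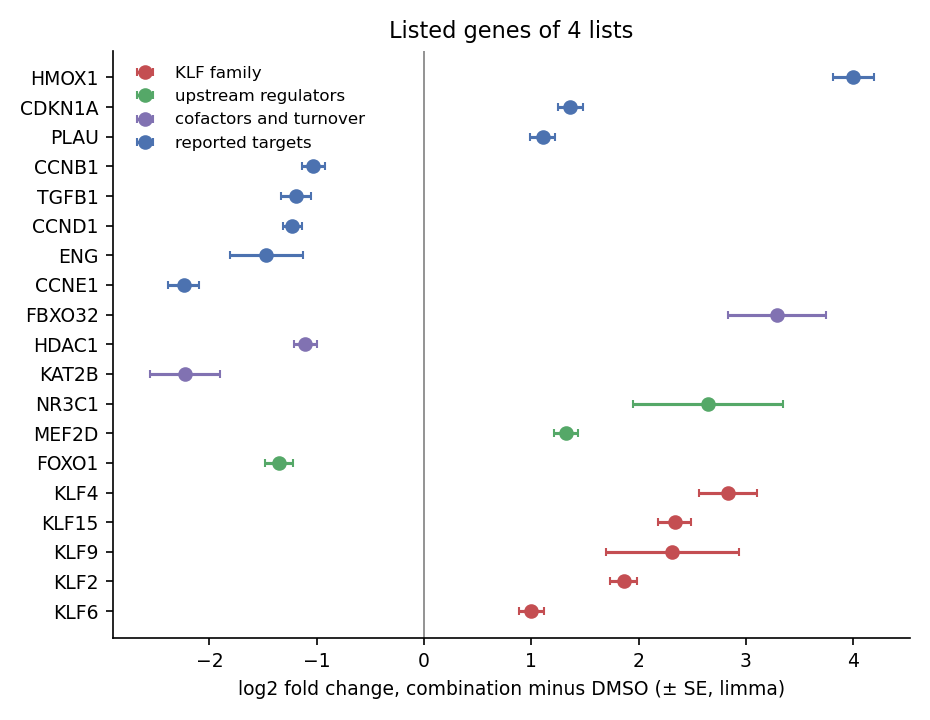
Log2 fold change of the combination over DMSO (limma, bars ± SE) for the genes of 4 lists present in the combination table, coloured by list. All 5 KLF genes lie to the right of 0, but 4 of them are the members, which were chosen from these same data. The regulators, cofactors and reported targets lie on both sides.

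The genes whose library values followed a member most closely were found by the root mean square difference of log2 values after each gene's DMSO mean was taken off. For KLF2, KLF4 and KLF6 this ran over the 6 libraries of the combination table and 1827 other protein-coding genes listed in that table alone with a mean of at least 50. ZNF239, a zinc finger gene, was nearest to KLF2 with a difference of 0.0335, followed by NFKB2, a subunit of NF-κB, at 0.0852 and KIZ, a centrosome gene, at 0.0955. The median over all candidates was 2.09 for KLF2, 2.78 for KLF4 and 1.49 for KLF6. Genes listed as lower were among the candidates, which raises this median. A small distance mainly reflects a fold change of like size and direction. BMP2, a bone morphogenetic protein, was nearest to KLF4 at 0.224, then KRT17, a keratin of basal epithelium, at 0.239 and CLBA1 at 0.270. NRBF2, TRIM25 and PYROXD1 were nearest to KLF6, at 0.0610, 0.0634 and 0.0668.

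For KLF15 the likeness ran over 12 libraries and the 46 other candidates listed in all 3 tables. SEL1L3 was nearest at 0.203, then the potassium channel gene KCNK15 at 0.210 and BEX2 at 0.239, against a median of 0.626. SEL1L3 went from 327 ± 8.49 in DMSO to 1410 ± 40.9 with the combination, and BMP2 from 23.7 ± 6.54 to 148 ± 17. The libraries of a table share their scaling, and these distances carry no test.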

How the data were processed

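Reads were processed with fastp, HISAT2 2.0.5 and featureCounts 1.5.0-p3 on build hg38, per the submitters' processing notes, which give these names without their roles. The authors compared groups with a tool not given in the sources used here. The signal deposited for each library behaves as reads over a library factor, scaled by the authors within each table. Whole reads were recovered for the combination table (100% of values within 0.01 of a whole read). The log2 fold changes and the p-values in the tables are the authors' own, as deposited.

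The members, lists and motifs were chosen with earlier results of these data known, and the motifs with the windows in view. Each table was fitted with limma 3.58.1 (with trend, R 4.3.3) on log2(value + 1) over all its genes, with Benjamini-Hochberg adjustment and a threshold of 0.05. The added 1 understates the changes of low genes. Contrasts between treatments used the genes present in each table involved, put on one scale by DMSO ratios of 0.997 (ezetimibe to combination), 1.03 (fenofibrate to combination) and 1.03 (fenofibrate to ezetimibe). Tests are 2-sided. With 3 libraries against 3 an exact test cannot give a 2-sided p under 0.1, and none was used. On simulated counts for the 3508 genes of the combination comparison, limma found 94% of 2-fold and 100% of 4-fold changes. In it 100 genes were changed at each fold and the rest left unchanged. In the data all 3508 genes had been called by the authors, so these shares do not carry over to that fit. The changed genes were not drawn from the lowest, and 1 setting of the spread served for all genes. It does not speak for genes with a wide spread, such as KLF4 in DMSO. Contrasts between treatments were not simulated. Named genes were the members, list genes present in a table, and the 3 nearest patterns of each member. KLF2P1, FAR2P1, the cell type markers and list genes with a mean under 50 were named after their values were seen. GENCODE release 29 gave equal coordinates for the members. Alternatives were another pseudocount (0.5 or 5), a minimum mean of 50, no trend, no library factor, edgeR 4.0.16, DESeq2 1.42.0, a replicate block and leaving out each library.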

Additional observations from a re-analysis of the deposited data

Results flagged for a closer look

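The change of KLF15 differed between treatments by a test of the difference itself. That test ran only on genes already listed against DMSO for both treatments, so its adjusted p-values may be too small. The combination was higher than ezetimibe by 0.88 on the log2 scale (limma adjusted p = 0.000141) and higher than fenofibrate by 1.16 (limma adjusted p = 1.12e-05), in 3 of 3 libraries of the combination in both cases. Such differences were common among the shared genes: 53.2% and 69.2% were called higher in these contrasts, 71% and 76.9% had groups without overlap, and the medians were 0.53 and 1.07.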

How the results depend on the processing

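All 10 log2 fold changes of the members kept their direction in all 137 recalculations with another setting or without one library, and those with a test kept their side of the threshold. Where 2 groups did not overlap, leaving out a library could not reverse the direction. The settings of trend, block and minimum mean leave the fold change itself unaltered. The kept directions are therefore largely fixed in advance. Leaving out one library moved KLF4 with the combination most among the changes against DMSO, between 2.68 and 3.13, and KLF6 lay between 0.93 and 1.12. For KLF15 the adjusted p over the alternatives ran from 9.73e-05 to 0.00140 for the combination over ezetimibe, from 6.31e-06 to 0.000213 for the combination over fenofibrate, from 0.0511 to 0.333 for ezetimibe over fenofibrate and from 0.103 to 0.384 for the difference from the summed changes. Of the 95 counts of genes called, 93 stayed within 1.5 times. The other two came from the minimum mean of 50, which left 296 and 2303 genes to test: 295 in place of 471 with ezetimibe and 2303 in place of 3508 with the combination. The same-numbered libraries did not deviate together (correlations from -0.327 to 0.157), so the numbers were not taken to pair them. Differently numbered libraries reached -0.333 (combination 1 with DMSO 3) and 0.338 (combination 2 with DMSO 3). Some variation was thus shared between combination and DMSO libraries, and its source was not tested. With a replicate block KLF15 had log2 differences of 0.88 (limma adjusted p = 0.000424) from ezetimibe and 1.16 (limma adjusted p = 0.000213) from fenofibrate. The counts called with it were 102, 472 and 3508 against DMSO. All counts against DMSO cover only genes that the authors had already called in the same libraries. They were bound to stay near the full number and say little about stability. In single drug tables the count models and the fit without library factors were not run, as whole reads were recovered in the combination table only. Few reads in DMSO limit the precision for KLF4 among the members, and for KLF9, NR3C1, FBXO32, GPT and KLF2P1 among the other genes named.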
